A study of Mus musculus with 18 samples.

Results

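Sox2, Pou5f1 and Nanog encode transcription factors that keep embryonic stem cells pluripotent. Their histone marks were followed in mouse embryonic fibroblasts given a virus to delete the retinoblastoma gene Rb or a control virus. The members were fixed by position, not by their values. They were the peaks that overlapped 3 windows of build NCBIM37: chromosome 3 from 34.50 to 34.60 Mb for Sox2, chromosome 17 from 35.63 to 35.66 Mb for Pou5f1, and chromosome 6 from 122.64 to 122.68 Mb for Nanog. The windows held 39 of the 225177 peaks of the 8 lists, 21 at Sox2, 10 at Pou5f1 and 8 at Nanog.

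All cells were fibroblasts of a mixed B6;129 background with a conditional allele of Rb. Adeno-Cre, an adenovirus that carries the recombinase Cre, was used to delete Rb, and Adeno-GFP, which carries green fluorescent protein, was the control, so that both groups bear the conditional allele and both were infected. The cells then went through at most 3 passages, and no sample used here received the 4F construct given to other samples of the series. Chromatin immunoprecipitation with sequencing gave 1 peak list for each of 4 marks under each virus: pan-acetylated histone H3 (H3Ac), H3K4me3, H3K27me3 and H3K9me3. Each list came from 1 library of bulk cells. Differences between GFP and Cre therefore had no replicate check, and none was tested. The read depth behind the lists was unknown. The sources used here do not say in what share of the Cre cells the allele was deleted, and the deletion was not checked, since the RNA libraries were not analysed here. Fibroblast marker genes were not checked either, because no NCBIM37 gene annotation was used.

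Sox2 and the product of Pou5f1, known as Oct4, bind DNA together at many stem cell enhancers, and Nanog is one of their targets and partners. Differentiated cells such as fibroblasts keep the 3 genes silent, and Sox2 and Pou5f1 are among the factors whose forced expression returns fibroblasts to pluripotency. H3Ac and H3K4me3 are typical of active promoters, and H3K27me3 is the mark of Polycomb complexes, which hold developmental regulators silent. H3K9me3 is typical of heterochromatin. Regions that carry H3K4me3 and H3K27me3 together are called bivalent. CpG-rich promoters are known to attract both marks, so the promoter sequences are shown first.

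Each sequence runs from 250 bases before to 50 bases after the outermost start of the gene, on the plus strand, as RefSeq gives it for build GRCm38.p6. Capitals mark CpG dinucleotides. All 3 members were found in the table of 32851 promoters.
Sox2: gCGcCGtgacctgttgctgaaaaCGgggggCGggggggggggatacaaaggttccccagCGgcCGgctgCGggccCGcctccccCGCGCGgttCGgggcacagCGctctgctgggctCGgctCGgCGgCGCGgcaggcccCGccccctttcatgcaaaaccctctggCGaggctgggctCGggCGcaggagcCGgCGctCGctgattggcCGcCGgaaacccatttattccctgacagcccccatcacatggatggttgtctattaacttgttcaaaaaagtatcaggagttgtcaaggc
Pou5f1: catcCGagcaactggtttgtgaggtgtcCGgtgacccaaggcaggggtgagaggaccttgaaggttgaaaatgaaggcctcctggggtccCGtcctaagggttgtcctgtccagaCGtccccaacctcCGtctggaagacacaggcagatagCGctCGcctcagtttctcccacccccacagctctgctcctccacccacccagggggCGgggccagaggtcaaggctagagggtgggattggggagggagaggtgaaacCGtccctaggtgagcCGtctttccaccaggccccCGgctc
Nanog: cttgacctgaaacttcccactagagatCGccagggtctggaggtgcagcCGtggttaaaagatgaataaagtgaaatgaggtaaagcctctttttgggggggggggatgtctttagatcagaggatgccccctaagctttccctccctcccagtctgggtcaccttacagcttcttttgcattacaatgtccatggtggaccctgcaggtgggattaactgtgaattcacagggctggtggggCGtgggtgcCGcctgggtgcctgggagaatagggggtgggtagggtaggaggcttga

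The Sox2 promoter was the richest of the 3 in CpG. It held 27 CpGs, and 85.8% of all promoters in the table had no more than that. The Pou5f1 promoter held 11 and the Nanog promoter 4, where the median promoter held 7. The observed count divided by the count expected from C and G content was 0.82 for Sox2, 0.37 for Pou5f1 and 0.19 for Nanog, against a median of 0.38. Motifs were searched on both strands. The octamer ATGCAAAT, the site of Oct factors, was in none of the 3 promoters and in 1.74% of all. Its first 7 bases, ATGCAAA, were searched after the sequences had been seen. They began at position -99 from the start in the Sox2 promoter and, on the opposite strand, at -75 in the Nanog promoter, and 4.63% of all promoters held them. ACAATG, a site of Sox factors, began at position -67 of the Nanog promoter, beside the 7-base match, and 12.6% of all promoters held it. ACAAAG, another Sox site, began at position -206 of the Sox2 promoter and was present in 18.7% of all promoters. The E2F sites TTTCCCGC, TTTGGCGC and TTTCGCGC were in none of the 3 promoters and in 1.07%, 0.514% and 0.323% of all. E2F factors are the partners through which the Rb protein represses cell cycle genes.

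The Sox2 window was a Polycomb domain in both conditions. H3K27me3 peaks covered 38.2% of its 100 kb in GFP and 36.3% in Cre cells. Of 24707 autosomal tiles of 100 kb, 1.10% were covered as much or more in GFP and 1.15% in Cre cells, and the mean tile was covered to 2.68% and 2.47%. The Cre minus GFP difference was -1.90 percentage points. Among tiles with H3K27me3 in either list, the middle 95% of differences ran from -8.52 to 5.60 points, and 22.7% had a difference as low as that at Sox2 or lower. The difference at Sox2 lay well inside that range.

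In GFP cells 7 H3K27me3 peaks overlapped the Sox2 window, and 3 of them carried the authors' score of 3100, a value at the upper end of the scale that 145 GFP peaks reached or passed. These 3 spanned 10970, 10954 and 11224 bases. In Cre cells 4 peaks overlapped it, and 3 scored 3100, with 11906, 13057 and 10626 bases. A width of 13057 bases or more was found in 0.324% of the Cre list. The score is the authors' own, has no stated unit, starts at 50 in all lists and can be ranked only within a list. From the first to the last of the 3 strong peaks, the GFP domain ran from 34536829 to 34574281 and the Cre domain from 34536735 to 34573728. Its edges were 94 and 553 bases apart, on spans of 37.5 and 37.0 kb. The shared regions of the domain had 1.01, 1.02 and 0.95 times as many bases under Cre as under GFP peaks, close to the median of 1.01 over 20664 H3K27me3 regions found in both lists.

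The domain had the same break in both lists. No H3K27me3 peak covered 34548695 to 34550000, a gap of 1306 bases common to both conditions, within gaps of 1520 bases in GFP and 1360 in Cre cells. The other breaks of the domain were 90 bases wide or less. Where this gap lies against the start of Sox2 was not determined, because the gene table is on another build. In that table Sox2 lies inside the long noncoding gene Sox2ot, so that a mark in the window can belong to either.

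**Figure D1:**
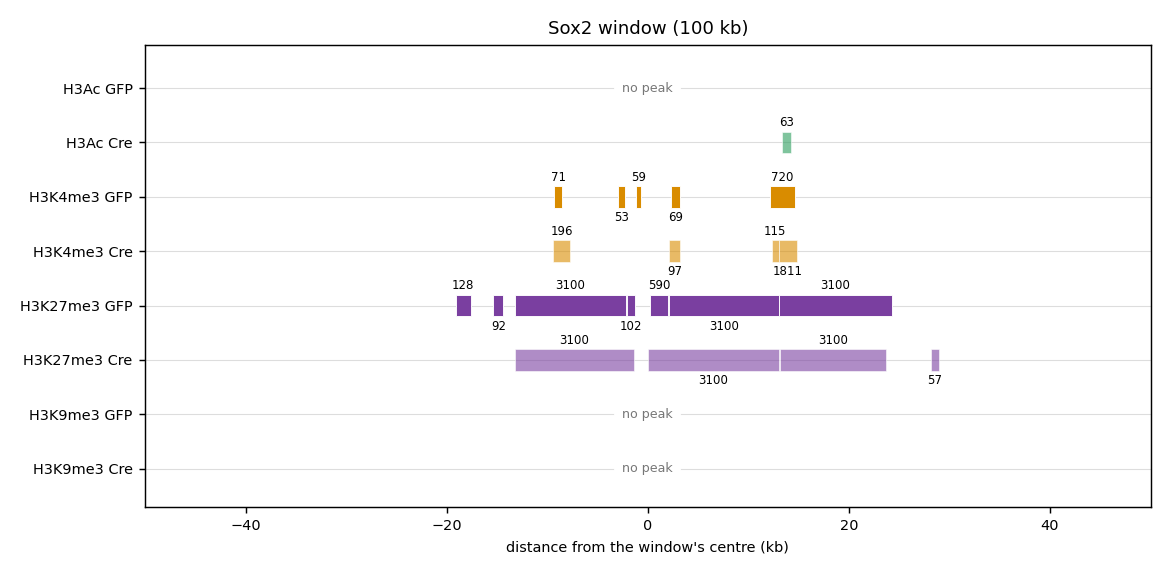
Peaks of the 8 lists in the Sox2 window, placed by distance from the window's centre in kb, with 1 row for each mark and virus and the authors' score (rounded) at each peak; touching blocks are separate peaks. The H3K27me3 domain has nearly the same edges and the same gap of 1306 bases in both conditions, and H3K9me3 has no peak.

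Weak H3K4me3 peaks were scattered over the Sox2 Polycomb domain, with 1 stronger region in its right part. In GFP cells 5 H3K4me3 peaks were listed, of which 4 overlapped H3K27me3. Over the whole GFP list 12.3% of H3K4me3 peaks did. In Cre cells 4 were listed and all 4 overlapped H3K27me3, where 13.1% of the whole Cre list did. Peaks that overlap in bulk cells need not lie in the same cell.

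The strongest H3K4me3 region of the Sox2 window lay from 34562194 to 34564867. Its highest score was 720.3 in GFP and 1811 in Cre cells, in which it was split into 2 peaks. Among 19333 H3K4me3 regions found in both lists, it stood at percentile 45.9 by GFP score and 56.5 by Cre score, and 12.6% of these regions moved up at least as far. It had 2397 bases in GFP and 2470 in Cre cells. A second shared region, from 34540582 to 34542229, was listed with 800 bases and a score of 71.4 in GFP, and with 1648 bases and a score of 195.9 in Cre cells. The ratio of 2.06 was reached or passed by 1.34% of the shared regions. The third, from 34552135 to 34553180, scored 68.6 and 96.8. By score percentile the second stood at 4.91 in GFP and 16.3 in Cre cells, and 11.2% of shared regions moved up at least as far. The third stood at 4.41 and 5.81, and 34.7% did. The median score of the whole H3K4me3 list was itself 564.7 in GFP and 886.9 in Cre cells.

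In the Sox2 window 2 H3K4me3 peaks of the GFP list had no Cre counterpart, and no Cre peak lacked a GFP counterpart. Over the whole lists, 10.7% of GFP and 12.6% of Cre H3K4me3 peaks had none. The 2 peaks, from 34546996 to 34547768 and from 34548811 to 34549268, scored 53.0 and 58.9, and 97.98% and 94.8% of the GFP list scored at least as high. The median score of all GFP H3K4me3 peaks without a Cre counterpart was 73.8. The second of them lay inside the gap of the H3K27me3 domain and was the only H3K4me3 peak of the window outside H3K27me3. Its 458 bases were among the narrowest of the list, in which 99.8% of peaks were at least as wide. No Cre peak of any mark covered that place.

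H3Ac was almost missing from the Sox2 window. The GFP list held no H3Ac peak there, and its nearest lay 156.8 kb to the left and 703.2 kb to the right of the window. The Cre list held 1, from 34563329 to 34564269, with a score of 63.0 that 90.7% of the Cre list reached or passed. It overlapped the strongest Cre H3K4me3 peak and the H3K27me3 domain, and 4.28% of all Cre H3Ac peaks overlapped H3K27me3. It was the single H3Ac peak of the 3 windows found in 1 list only, against a background of 15.4% of Cre and 26.6% of GFP H3Ac peaks. Its score was below the median of 76.3 of all Cre H3Ac peaks without a GFP counterpart.

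Smaller H3K27me3 peaks at the margins of the Sox2 domain differed between the lists. Peaks of the GFP list from 34530911 to 34532363, with a score of 127.7, and from 34534628 to 34535636, with 91.9, had no Cre counterpart. A Cre peak from 34578195 to 34578939 had no GFP counterpart and scored 56.9. With Pou5f1, the windows held 3 GFP and 2 Cre H3K27me3 peaks found in 1 list only, of 10 and 7. Such peaks made up 30.5% of the GFP and 33.6% of the Cre list, so that the share in the windows was near that of the lists.

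The Pou5f1 window carried high-scoring active marks on its right side and H3K27me3 peaks of middling score in its centre and left, in both conditions. A single H3K4me3 peak with a score of 3100 was listed in each list, at 35651530 to 35655573 (GFP) and 35650633 to 35655972 (Cre). Its 4044 and 5340 bases gave a ratio of 1.32, which 14.5% of shared H3K4me3 regions reached or passed. None of it overlapped H3K27me3. At the same place lay 2 H3Ac peaks. The left one scored 1090 with 2560 bases in GFP and 3100 with 3055 bases in Cre cells, which put it at percentile 71.9 by GFP and 96.2 by Cre score among 33794 H3Ac regions found in both lists. An upward difference of that size or more was seen in 4.64% of them. The Cre score of 3100 was reached or passed by 5.64% of the Cre list, so that ranks at the top are tied. The right one scored 1217 with 1822 bases in GFP and 1663 with 2948 bases in Cre cells, and its ratio of 1.62 was reached or passed by 2.95% of the shared regions. Both acetylated regions and the H3K4me3 region were wider in the Cre list.

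The active marks could not be assigned to Pou5f1 or to a neighbour, because the place of these genes within the window was not determined. In the RefSeq table the next genes after Pou5f1 toward higher coordinates are Tcf19 on the minus strand and Cchcr1 on the plus strand, so that the starts of these neighbours lie next to each other. The strong peaks lay in the right part of the window, with centres 8.55 kb (GFP) and 8.30 kb (Cre) right of its centre for H3K4me3. The window's centre does not mark the place of Pou5f1. The promoters listed for Tcf19 and Cchcr1 held 34, 32 and 24 CpGs, the last 2 of these for Cchcr1, against 11 and 6 for the 2 promoters listed for Pou5f1. Whether the marks belong to any of these promoters was not tested.

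H3K27me3 in the Pou5f1 window differed little in extent, 9.77% of the 30 kb in GFP and 9.94% in Cre cells. One region was shared. The GFP peak, at 35643370 to 35645033, scored 210.2, and the Cre peak, at 35643433 to 35644796, scored 208.3. Among shared H3K27me3 regions it stood at percentile 48.9 in GFP and 46.0 in Cre cells. It overlapped no other mark in either list. The remaining peaks were at different places: GFP cells had one from 35640421 to 35641688 with a score of 118.4, and Cre cells one from 35635692 to 35637309 with a score of 110.5. The nearest peaks of the other condition were 1745 and 3112 bases away. Similar coverage here thus came partly from different sites. In the middle 50% of the window, which leaves out the Cre peak on the left, the Cre minus GFP difference was -10.5 percentage points in place of 0.17.

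**Figure D2:**
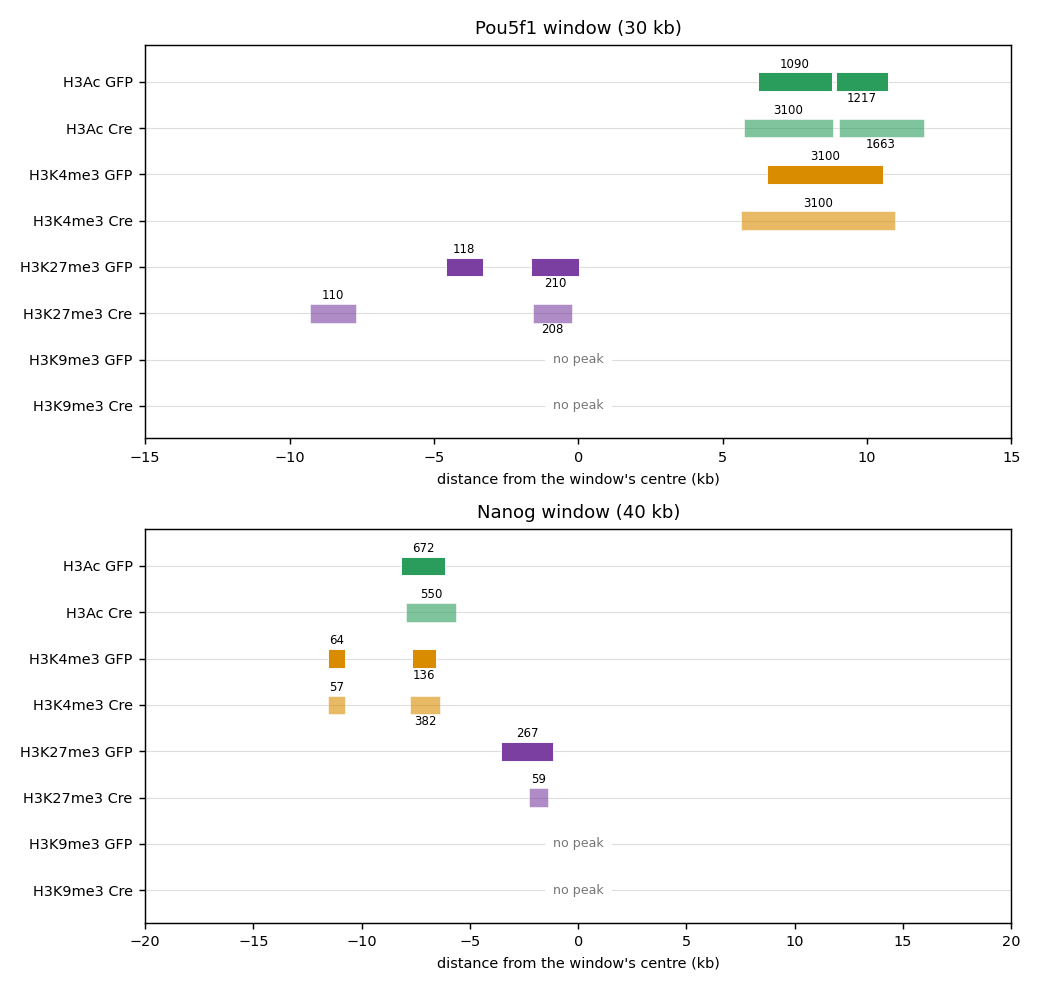
Peaks of the 8 lists in the Pou5f1 and Nanog windows, placed by distance from each window's centre in kb, with the authors' score (rounded) at each peak. Except for 1 weak H3K4me3 peak at Nanog that lies alone, H3Ac and H3K4me3 overlap each other in both windows and lie apart from H3K27me3, and the Nanog H3K27me3 peak is narrower in Cre (852 bases) than in GFP cells (2437 bases).

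The Nanog window held 1 acetylated region with H3K4me3, 1 weak H3K4me3 peak and 1 H3K27me3 peak in each condition. All 4 of its regions were present in both lists. Of the 14 regions of the 3 windows found in both lists, the Nanog H3K27me3 region had the widest gap between GFP and Cre, both in bases and in score percentile. It ran from 122656417 to 122658853 in GFP cells, with 2437 bases and a score of 267.0. In Cre cells it ran from 122657740 to 122658591, with 852 bases and a score of 59.3, which 88.8% of the Cre list reached or passed. The ratio of bases was 0.35, and 0.944% of the shared H3K27me3 regions had a ratio that low or lower. Its score percentile among shared regions was 57.5 in GFP and 4.42 in Cre cells, a difference of -53.1 points, and 0.934% of shared regions had a difference as low or lower. Shared regions leave out peaks that were lost. Of 1665 autosomal GFP H3K27me3 peaks with a score within 10% of that at Nanog, 140 overlapped no Cre peak and 31 overlapped Cre peaks of no higher score than that at Nanog. Together these were 10.3%. The median Cre score was 254.2 where a Cre peak was present.

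The active region of the Nanog window differed less by both measures. Its GFP H3Ac peak, at 122651809 to 122653868, scored 671.8, and the Cre peak, at 122652056 to 122654331, scored 549.5. Its percentile among shared H3Ac regions was 61.8 and 60.9. The H3K4me3 peak inside it scored 135.6 with 1123 bases in GFP and 382.4 with 1352 bases in Cre cells, with percentiles of 16.4 and 27.9, an upward difference that 10.8% of shared regions matched or passed. The weak H3K4me3 peak, from 122648446 to 122649209 over both lists, scored 64.2 and 57.4 and overlapped no other mark. No H3K4me3 peak of the window overlapped H3K27me3 in either list, unlike at Sox2. Neighbouring genes in the table were Slc2a3, a glucose transporter gene, on the side of higher coordinates and the pseudogene Gm10224 on the other. Which of these elements belong to Nanog was not determined.

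**Figure D3:**
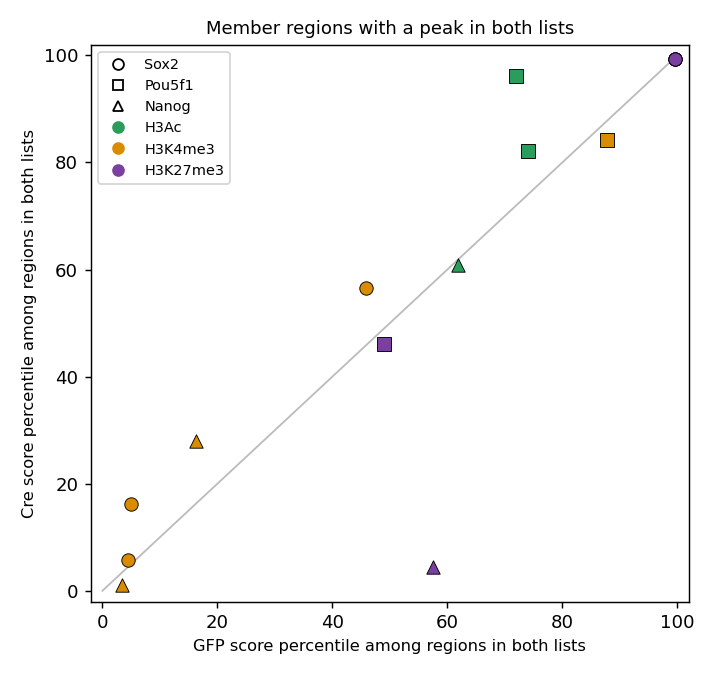
Score percentile of each member region among all regions of its mark with a peak in both lists, GFP on the x axis and Cre on the y axis, both in percent; the line marks equal percentiles, and the 3 Sox2 H3K27me3 regions coincide at the upper right. The Nanog H3K27me3 region lies at 57.5 and 4.42, and the left Pou5f1 H3Ac region at 71.9 and 96.2.

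H3K9me3 had no peak in any of the 3 windows in either list. Most tiles of the genome held none either: 19.7% of 100 kb tiles, 7.62% of 30 kb tiles and 9.60% of 40 kb tiles held a GFP H3K9me3 peak, and 8.20%, 2.98% and 3.78% a Cre peak. The nearest H3K9me3 peaks lay 151.4 kb from the Sox2 window, 116.2 kb from that of Pou5f1 and 131.1 kb from that of Nanog in GFP cells. In Cre cells they lay 87.1, 545.4 and 232.1 kb away. The missing list entries mean that no peak passed the authors' threshold, which at unknown depth does not show that the mark was absent.

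By percent covered, the leading mark was H3K27me3 in the Sox2 window and H3Ac in the Pou5f1 window in both lists. The active marks of the Pou5f1 window lay in its right part and could not be assigned to Pou5f1 or to a neighbour. H3K27me3 covered 38.2% of the Sox2, 9.77% of the Pou5f1 and 6.09% of the Nanog window in GFP cells, and 36.3%, 9.94% and 2.13% in Cre cells. H3K4me3 covered 5.31%, 13.5% and 4.72% in GFP and 5.15%, 17.8% and 5.26% in Cre cells. H3Ac covered 0%, 14.6% and 5.15% in GFP and 0.94%, 20.01% and 5.69% in Cre cells. These percents are of windows of 100, 30 and 40 kb, so that they give no order of the amounts. In bases, H3K4me3 peaks covered 5308 at Sox2, 4044 at Pou5f1 and 1887 at Nanog in GFP cells, and 5154, 5340 and 2102 in Cre cells. Peaks were joined into 22 regions over the windows, 14 found in both lists, 5 in the GFP list only and 3 in the Cre list only. The 8 regions of 1 list only scored 127.7 or less.

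As a percent of windows of unequal length, the Pou5f1 window had more cover of both active marks in the Cre list. The Cre minus GFP difference was 5.40 percentage points for H3Ac and 4.32 for H3K4me3. The H3Ac difference was 3.11 in the middle 50% of the window, and that of H3K4me3 was 2.31 in a window widened by 50% on each side. Among 30 kb tiles with the mark in either list, 3.64% had an H3Ac difference that high or higher and 6.28% an H3K4me3 difference. At Nanog, H3K27me3 had a difference of -3.96 points, and 21.5% of the 40 kb tiles with the mark in either list had one as low or lower. With scores of at least 100 alone it was -6.09, since the Cre peak then falls out. For H3K4me3 at Sox2 the difference was -0.15 points over all peaks and 1.72 with scores of at least 100.

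**Figure D4:**
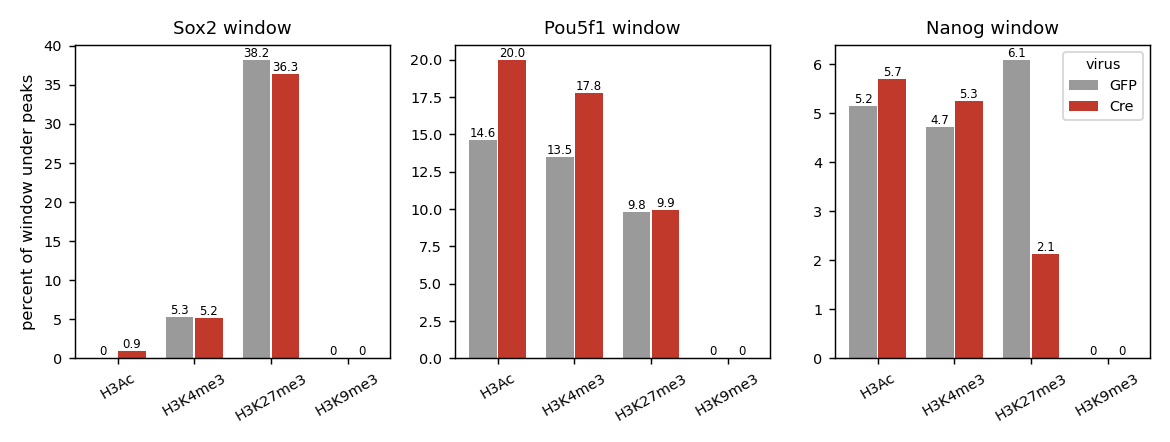
Percent of each window under peaks (y axis, its scale differing between the panels) for the 4 marks (x axis), with grey bars for the GFP and red bars for the Cre list, 1 library each and so without error bars. H3K27me3 dominates in the Sox2 window (38.2% and 36.3%) and H3K9me3 is at 0 in all windows. H3Ac and H3K4me3 dominate in the Pou5f1 window, where they could not be assigned to Pou5f1 or to a neighbour.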

How the data were processed

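Histone peak lists of 8 libraries were used, and the other 10 samples were not analysed here. The score of each peak was deposited by the authors with no header or unit, and peak names begin with MACS, per the file contents. Per the submitters' processing notes the build was NCBIM37 and the tools included MACS 1.4.1, BWA, bedtools 2.16.2 and SAMtools 0.1.18. The control library, the handling of duplicates and the threshold are not given in the sources used here. All of these and the depth can move a score, which was therefore ranked within its list. To set GFP beside Cre, ranks were taken among regions that both lists held.

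Starts were counted from 1. Peaks were taken where they overlapped a window by at least 1 base, and covered bases were clipped to it. GFP and Cre peaks of a mark that overlapped were joined into regions. Tiles of the length of each window ran along the 19 autosomes. A peak was in 1 list only when no peak of the same mark overlapped it in the other list. The rule named every member in every mark and virus, and singly each peak in 1 list only, but peaks beyond 3 per window and mark only if highest, widest or in 1 list. Other peaks given were chosen after their values were seen, as were the regions, the peaks of like score and the 7-base motif. The members and lists were chosen with earlier results of these data known. Planned lists of other pluripotency genes and fibroblast markers were not run, because the gene tables are on GRCm38.p6. From these tables only names, order and promoter sequences were used. The overlap code was tested on 50 simulated list pairs, with 0 errors. Alternatives were a minimum score of 100, equal numbers of top peaks, merging within 1000 bases, 50% overlap, and narrower or wider windows. Python 3.11.15, NumPy 2.4.6, pandas 2.3.3 and matplotlib 3.10.9 were used.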

Additional observations from a re-analysis of the deposited data

How the results depend on the processing

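With 1 library per mark and virus, all values rest on single libraries of unknown depth. No paired analysis was possible because each group has 1 library. Of 84 values under an alternative that answer a comparison, 61 moved by at most 1.5 times, of which 26 were 0 in both settings and so say little, 17 moved by more (or to or from 0) and 6 changed sign. Narrowing or widening a window also changes its length, by which cover is divided; otherwise the cause was not tested. The differences below are Cre minus GFP, in percentage points of window covered. The Polycomb coverage of Sox2 kept its sign in all alternatives (-5.30 in the middle 50% of the window, -0.95 in the widened one, against -1.90), and so did that of Nanog (-6.09 at a score of at least 100, -7.93 in the middle 50%, -1.99 widened, against -3.96). For Nanog, the middle 50% held the same H3K27me3 peaks and the minimum score removed only the Cre peak. Neither could change the sign. Equal numbers of top peaks and merging left the Nanog difference at -3.96. H3K27me3 at Pou5f1 changed from 0.17 to -10.5 in the middle 50% and -0.58 in the widened window. H3K4me3 at Sox2 changed from -0.15 to 1.72 at a score of at least 100, 0.62 with equal numbers of top peaks in both lists and 0.37 in the widened window, and was -0.31 in the middle 50%. At Pou5f1, H3Ac was 3.11 in the middle 50% and H3K4me3 2.31 in the widened window. At Nanog, H3Ac was 1.08 in the middle 50% but -2.09 in the widened window, and H3K4me3 1.15 and 0.11. H3Ac at Sox2 was 0 at a score of at least 100 and 1.88 in the middle 50%. At that score the number of peaks in 1 list only was 0 for Cre H3Ac, 0 for GFP H3K4me3 and 1 for Cre H3K27me3, and with 50% overlap it was 1 for Cre H3K4me3. In the counts at that score, weaker peaks were dropped from the counted list only, and the other list was kept whole. Counts with both lists filtered were not made.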

Other observations

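The surroundings of the windows were viewed to 500 kb on either side of each centre, and the places named here were chosen after their values were seen. Active marks were few around Sox2, with 3 H3Ac and 6 H3K4me3 peaks in 1 Mb in each list. The Sox2 window held 67.5% of the H3K27me3 cover of the 1 Mb around it in GFP and 70.5% in Cre cells, and 84.8% and 72.1% of the H3K4me3 cover. A place 30.4 kb left of the Sox2 window carried H3Ac (score 124.5, from 34468428 to 34469557) and H3K4me3 (score 76.1, from 34468657 to 34469552) in the Cre list, and no peak of either mark in the GFP list. Conversely, GFP H3Ac peaks from 34231883 to 34233309 (score 109.9) and from 34342344 to 34343237 (score 82.5), also left of the window, had no Cre counterpart. Over the whole lists, 15.4% of Cre H3Ac, 12.6% of Cre H3K4me3 and 26.6% of GFP H3Ac peaks had none.

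Pou5f1 had a larger Polycomb domain as a neighbour. On the left, a GFP H3K27me3 peak ran from 35593508 to 35607035 with a score of 2064, and Cre peaks with scores of 2726 and 525.9 lay on it. On the right, 3 GFP H3K27me3 peaks between 35674991 and 35680707 had no Cre counterpart, with scores of 77.2, 348.2 and 91.4. Only 348.2 was above 155.9, the 90th percentile of all GFP H3K27me3 peaks without one. Over the whole lists, 30.5% of GFP and 33.6% of Cre H3K27me3 peaks had no counterpart. Left of the window, peaks in 1 list only scored 117.6, 53.0 and 139.8 in the GFP list. In the Cre list they scored 60.2, 117.7, 54.1, 52.5, 53.6 and 126.2. Beyond the 3 GFP peaks on the right, peaks in 1 list only scored 77.9 in the GFP list and 73.8 and 90.4 in the Cre list. The nearest Cre H3K27me3 peak on that side lay 44.3 kb from the window.

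To the right of the Nanog window, a region carried H3Ac, H3K4me3 and H3K27me3 in both lists. Its H3K4me3 peak scored 1311 in GFP and 2060 in Cre cells, its H3K27me3 peak 858.3 and 1072, and its H3Ac peak 387.8 and 269.9. These scores were not ranked. The medians of the whole lists were 564.7 and 886.9 for H3K4me3, 128.1 and 135.3 for H3K27me3, and 224.1 and 226.7 for H3Ac. The H3K27me3 peak there spanned 4107 bases in GFP and 4101 in Cre cells, while the one inside the window spanned 2437 and 852. Other H3K27me3 peaks around the window differed in both directions. To its left, a peak that began at 122610893 in the GFP list scored 617.7 in GFP and 1385 in Cre cells. Another, which began at 122447784 in the GFP list, scored 216.9 in GFP and 66.2 in Cre cells.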
